A study of Mus musculus with 2 samples.

Results

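Transcripts of the secreted Wnt proteins, their Frizzled receptors and the secreted proteins that raise or lower Wnt signalling were followed in single cells of chimeric mouse embryos at about E8.5. The genes were taken by symbol from the deposited matrix of spliced reads: every column named Wnt, Fzd, Sfrp, Rspo or Dkk with a number was kept, which gave 41 of the 29453 genes. They comprised 19 Wnt ligands, 10 Frizzled receptors, 4 R-spondins, 4 secreted Frizzled-related proteins (SFRPs) and 4 Dickkopf proteins. Both layers of the data were used, the spliced and the unspliced UMIs (unique molecular identifiers, each standing for 1 captured RNA molecule). Symbols of all 41 genes were found in the GENCODE vM21 annotation of GRCm38.

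The embryos came from C57BL/6 host blastocysts that had received embryonic stem cells of a single male clone. These injected cells carried a tdTomato reporter at the Rosa26 locus, active in all cells, and a frameshift mutation of 38 bp in exon 4 of Gata1, which encodes a transcription factor that red blood cells and megakaryocytes need. Cells of 6 embryos were pooled and sorted by fluorescence into a tdTom+ fraction, which is Gata1-, and a tdTom- fraction of wild-type host cells, and each fraction gave 1 library on the 10x Genomics platform. The labels give an age of E8.5 for tdTom+ and E8.6 for tdTom-. The title of the tdTom- library gives E8.5, however, and the paper states this age for the harvest of all 6 embryos. Both fractions came from the same pooled embryos, so the labels do not mark a difference in embryo age. With 1 library per fraction, the mutation, the cell source, the clone, the sort gate and the library cannot be told apart. The host cells hold extraembryonic lineages that injected cells rarely enter, and no p-value can be given for any difference between fractions.

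Wnt ligands are lipid-modified secreted proteins that bind Frizzled receptors together with the co-receptors Lrp5 and Lrp6. In the canonical branch this binding stabilises β-catenin, which enters the nucleus and turns on genes with TCF/LEF proteins; other ligands, such as Wnt5a and Wnt11, act chiefly on cell polarity and movement. R-spondins keep Frizzled receptors at the cell surface, SFRPs bind the ligands, and Dickkopf proteins such as Dkk1 block the co-receptors. In the early embryo Wnt signals maintain the posterior growth zone that builds the trunk, and their inhibition in front allows the head and heart to form.

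The tdTom+ library held 8981 cells and the tdTom- library 9252 cells, with median spliced UMIs per cell of 17598 and 15996. After called doublets and a doublet cluster of 403 cells were left out, 8594 and 8723 cells remained, which fell into 37 clusters. Of these, 30 clusters were named from marker lists as 23 cell groups, and 7 stayed unnamed and are called here by their leading genes. Each name means "-like", and the suffix is left out below. Allantois cells lay in a tdTom+ cluster led by Tbx4 and Pitx1 (618 of 622 cells) and a tdTom- cluster led by Cdkn1c and Phlda2 (321 of 322 cells). The cluster led by Il1b and AY036118 held 77 cells with few UMIs and is passed over when leading groups are named. As a check of the labels, Gata1 had 1003 spliced UMIs in tdTom+ and 3967 in tdTom-, and 1376 and 361 unspliced UMIs. The libraries shared 18 cell barcodes.

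Levels are given as CPM, the UMIs of a gene per 1000000 spliced UMIs of the same cells, with exact Poisson 95% intervals that cover counting error only. The assay reads the 3′ ends of transcripts, so levels are compared between cell groups for the same gene and not between genes. Free RNA adds a low level to every cell, and the lowest level over the cell groups is therefore given for the broad genes. It was 0 CPM for Rspo4, Wnt2b, Wnt9b and Wnt16, the 4 described genes with the lowest leading levels. Of the 41 genes, 34 had at least 100 spliced UMIs and are described by cell group. For 10 of them the leading group lay above all others, the low-UMI cluster included, beyond the intervals. For 23 the leading group was the same in both fractions when groups with at least 50 cells of the fraction were ranked. This limit leaves out notochord. In tdTom+ it also leaves out the groups that led in the sum of the fractions for Fzd3, Rspo4 and Wnt7b, so these genes could not keep them.

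**Figure D1:**
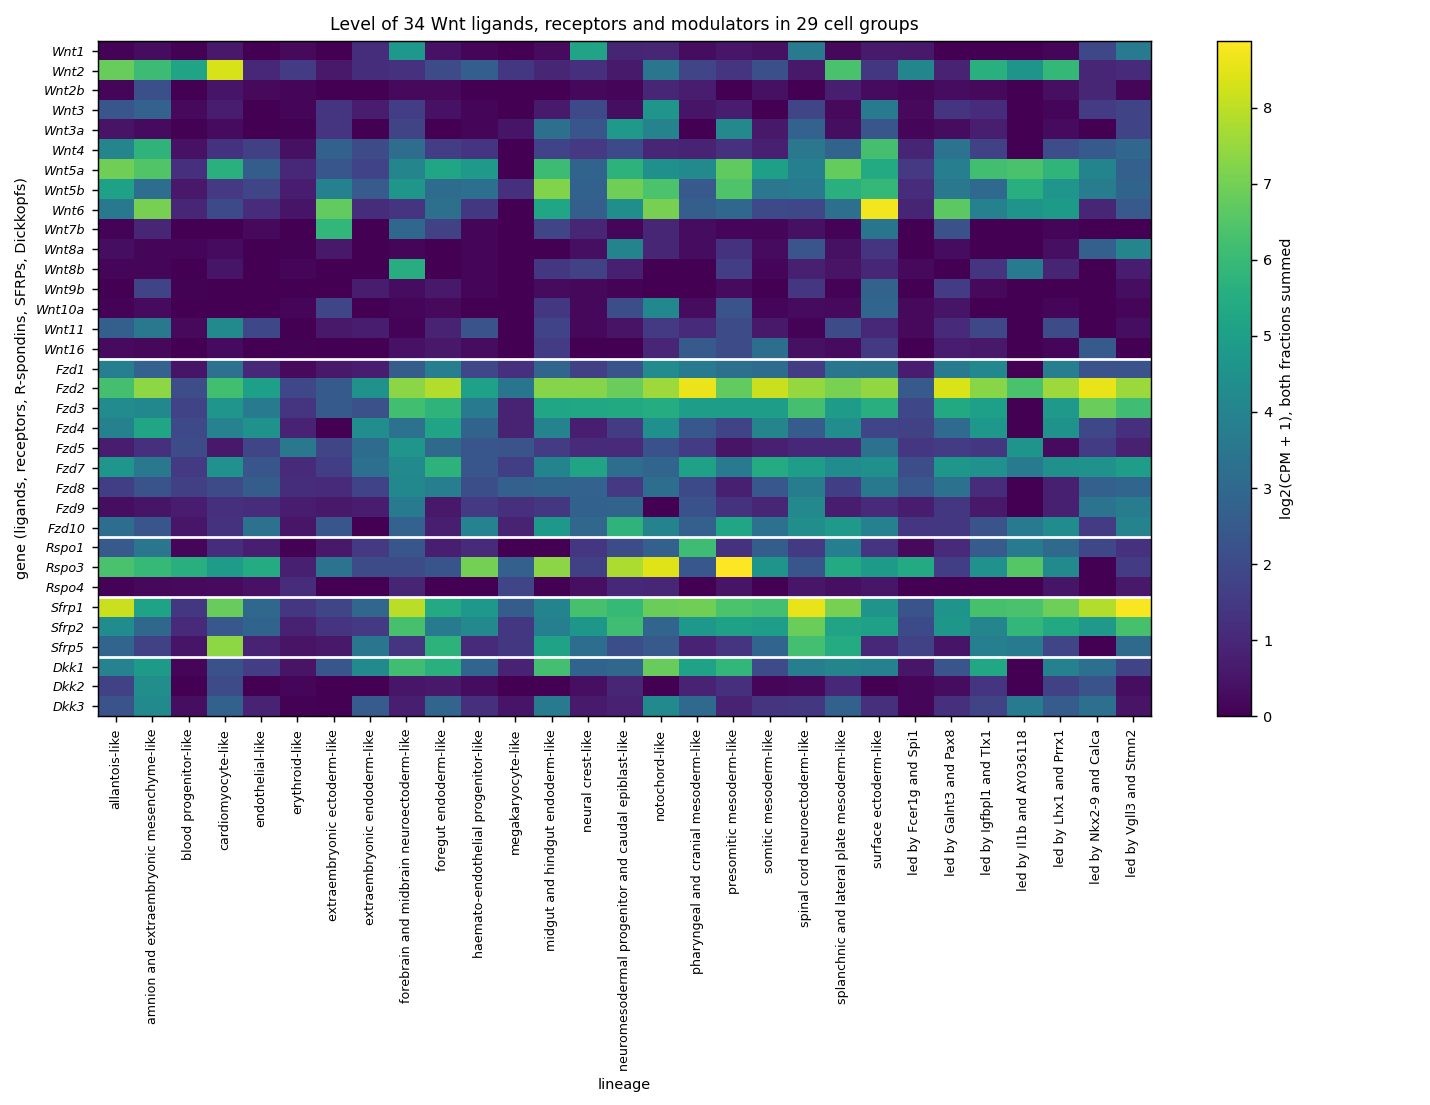
Level of 34 Wnt ligands, receptors and modulators (rows, by role) in the 29 cell groups with at least 50 cells (columns), as log2(CPM + 1) with both fractions summed. Fzd2 and Sfrp1 were found in most columns, while Wnt6, Wnt8b and Rspo1 were highest in few, and the blood columns were low for almost all rows.

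Among the ligands, Wnt6, known from ectoderm and kidney, was highest in surface ectoderm. Its level in surface ectoderm was 423 CPM (409 to 437) in tdTom+ cells and 425 CPM (411 to 440) in tdTom- cells, 3.17 times the level in the next group, and these cells held 55.9% of its UMIs. The fractions thus overlapped in the group that led. Within it the cluster led by Bhlha9 and Sfn had 687 CPM of Wnt6 and the cluster led by Dlx5 and Epcam 182 CPM, and Wnt6 was also at 707 CPM in a cluster led by Tac2 and Anxa2 among the amnion and extraembryonic mesenchyme cells. Wnt4, which has known roles in kidney and gonad, followed the same cells, with 75.4 and 74.3 CPM in the surface ectoderm of tdTom+ and tdTom- and 178 CPM in the Tac2 and Anxa2 cluster. Wnt9b had the same leading cells, with 7.37 and 4.74 CPM in surface ectoderm and 17.9 CPM in the Tac2 and Anxa2 cluster. Of the genes with fewer than 100 UMIs, Wnt7a had 66 of its 80 UMIs and Dkk4 had 14 of its 18 in surface ectoderm.

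Wnt2, a ligand of heart and lung development, was highest in cardiomyocytes, at 311 CPM (297 to 326) in tdTom+ against 351 CPM (333 to 370) in tdTom-. With other clusterings its highest group was unnamed, a cluster led by Mab21l2 and Tgfb2 at resolution 2.5 and one led by Tgfb2 and Gata6 with doublets kept. The heart cells were not uniform: Wnt2 was at 543 CPM in the cluster led by Csrp3 and Myl4 and at 168 CPM in the cluster led by Myl3 and Actc1, both of which raised all 8 cardiomyocyte markers. Wnt11, a ligand of the polarity branch, had the opposite order in these clusters, with 4.65 and 26.8 CPM. Outside the heart Wnt2 reached 192 CPM in the splanchnic mesoderm cluster led by Arg1 and Aldh1a2 against 3.87 CPM in the posterior one led by Hoxd1 and Cdx4. In allantois Wnt2 was at 91.4 CPM in tdTom+ against 151 CPM in tdTom-, with the fractions in the separate clusters named above.

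Wnt5a and Wnt5b, close relatives that act mostly outside the canonical branch, were found in posterior mesoderm, gut and the growth zone. Wnt5a led in allantois with 126 CPM in tdTom+ against 117 CPM in tdTom-, followed by splanchnic mesoderm with 111 and 106 CPM and presomitic mesoderm with 102 and 107 CPM. Its level in splanchnic mesoderm came from the posterior cluster led by Hoxd1 and Cdx4, at 153 CPM, and unnamed clusters led by Cdx4 with Hoxd1 or Osr1 were its highest group at resolution 2.5 and with doublets kept. Wnt5b led in midgut and hindgut endoderm in tdTom- and in the sum of the fractions, with 105 CPM (92.2 to 119) in tdTom+ against 177 CPM (162 to 193) in tdTom-, intervals that did not overlap. In neuromesodermal progenitors and caudal epiblast, the highest group of tdTom+, Wnt5b was at 122 and 126 CPM, and in the Bhlha9 and Sfn cluster of surface ectoderm at 110 CPM.

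The ligands of the growth zone and neural tube were found in fewer groups. Wnt3a, the ligand that sustains the trunk progenitors, was at 25.1 CPM (21.6 to 28.9) and 27.1 CPM (23.7 to 31.0) in neuromesodermal progenitors of tdTom+ and tdTom-, and at 18.1 and 16.5 CPM in presomitic mesoderm. Wnt8a was at 18.1 and 12.3 CPM in neuromesodermal progenitors and at 13.3 and 17.2 CPM in the unnamed neural cluster led by Vgll3 and Stmn2. These groups did not separate, so Wnt8a had no single leading group. In the head, Wnt8b was at 61.7 CPM and 76.7 CPM in the cluster led by Lhx2 and Rax and at 2.93 and 2.78 CPM in the cluster led by En1 and Fam181b. Wnt1, the midbrain organiser and dorsal neural tube ligand, had the reverse, with 61.6 and 60.8 CPM in the En1 cluster and 1.01 and 2.47 CPM in the Lhx2 and Rax cluster. Neural crest had 30.7 CPM of Wnt1 in tdTom+ and 39.4 CPM in tdTom-.

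**Figure D2:**
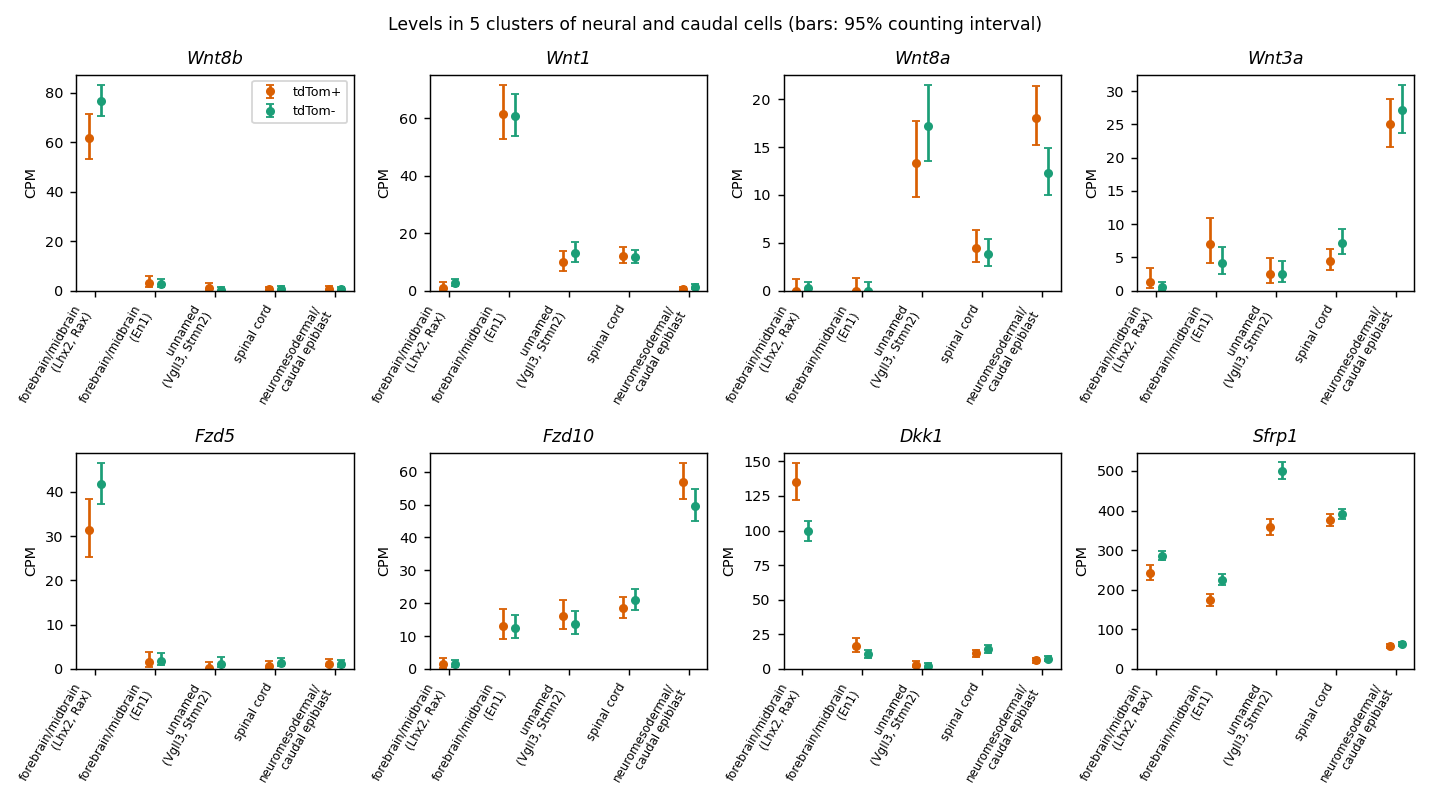
CPM of 8 genes (1 panel each) in 5 clusters of neural and caudal cells for tdTom+ and tdTom- cells, with points for the level and bars for its 95% counting interval. Wnt8b, Fzd5 and Dkk1 stood highest in the Lhx2 and Rax cluster, Wnt1 in the En1 cluster, and Wnt3a and Fzd10 in the neuromesodermal and caudal epiblast cluster, in both fractions.

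The other ligands were low or tied to small groups. Wnt3, needed to start gastrulation, led in notochord, a group of 84 cells, with 23.0 CPM (12.2 to 39.3) in tdTom+ against 25.1 CPM (13.3 to 42.9) in tdTom-, and was at 12.6 and 10.2 CPM in surface ectoderm. Wnt10a was at 23.0 and 9.64 CPM in notochord with overlapping intervals. Wnt7b, known from placenta and lung, was at 57.3 CPM (47.0 to 69.2) in the extraembryonic ectoderm of tdTom-, a group of 75 cells of which 1 was tdTom+. Wnt16 was at 7.91 and 8.35 CPM in somitic mesoderm, and Wnt2b at 3.70 and 3.16 CPM in amnion and extraembryonic mesenchyme. The remaining ligands had 48 UMIs in all for Wnt9a and 16 for Wnt10b, too few to place.

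Fzd2 was the most widely found receptor, with at least 10 CPM in 24 of the 29 cell groups, and Fzd3 and Fzd7 reached this level in 22 and 19. Fzd2 was at 404 CPM (377 to 432) in tdTom+ against 384 CPM (360 to 409) in tdTom- in pharyngeal and cranial mesoderm. Its lowest level was 2.75 CPM in erythroid cells. Fzd7, a close relative of Fzd2, had the nearest pattern over the 29 groups, with a Pearson correlation of log2(CPM + 1) of 0.88, and led in foregut endoderm with 53.1 and 50.5 CPM. Fzd3, which guides neural wiring, was at 71.8 and 79.9 CPM in spinal cord and at 79.7 and 142 CPM in the small cluster led by Nkx2-9 and Calca. Fzd1 had no single leading group: the interval of notochord, at 18.4 CPM, overlapped those of 8 further groups, the low-UMI cluster among them. It lay above those of the remaining groups, and the median over the 29 groups was 5.09 CPM.

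Of the more selective receptors, Fzd10 followed Wnt3a and Wnt5b into the growth zone, with 57.0 CPM (51.7 to 62.6) in tdTom+ against 49.6 CPM (44.9 to 54.7) in tdTom- in neuromesodermal progenitors. Fzd5, needed in eye and yolk sac vessels, was at 31.4 and 41.7 CPM in the Lhx2 and Rax cluster and at 10.6 CPM (9.41 to 12) in the erythroid cells of tdTom-. Fzd8 led in forebrain and midbrain with 13.4 and 18.4 CPM, but in none of the clusterings at other resolutions or with doublets kept, and Fzd9 in spinal cord with 15.8 and 18.3 CPM. Fzd4, the receptor of vessel growth in the eye, was at 35.2 and 38.8 CPM in amnion and extraembryonic mesenchyme, at 40.1 and 30.1 CPM in foregut endoderm and at 23.9 and 21.3 CPM in endothelium. For Fzd6 the spliced layer held 24 UMIs and the unspliced layer 0 in all cells, while the gene total of the Cell Ranger counts was 589, so its level cannot be read from the layers.

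The R-spondin genes differed in where they were highest. Rspo3 was at 454 CPM (436 to 473) in tdTom+ against 484 CPM (466 to 502) in tdTom- in presomitic mesoderm, at 325 and 368 CPM in notochord and at 193 and 249 CPM in neuromesodermal progenitors. Its gene lies on chr10:29452416-29535867 on the minus strand. Rspo1 was at 79.7 CPM (68.2 to 92.7) and 60.1 CPM (50.9 to 70.5) in pharyngeal and cranial mesoderm, 5.27 times the next group when the fractions were summed. Rspo2 had 34 of its 99 UMIs in foregut endoderm. Rspo4 was low in all groups, with its highest level, 2.58 CPM, in megakaryocytes.

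Among the SFRPs, Sfrp1 was broad, with at least 10 CPM in 22 groups. It was at 358 and 501 CPM in the Vgll3 and Stmn2 cluster and at 376 and 391 CPM in spinal cord, and its lowest level was 1.63 CPM in erythroid cells. Sfrp2 led in spinal cord with 110 CPM (102 to 118) in tdTom+ against 122 CPM (114 to 129) in tdTom-. Sfrp5, an inhibitor made in foregut and heart precursors, followed Wnt2 inside the heart and moved to the same unnamed clusters in the other clusterings: it was at 353 CPM in the Csrp3 and Myl4 cluster and at 23.3 CPM in the Myl3 and Actc1 cluster. It was also at 106 CPM in the splanchnic cluster led by Arg1 and Aldh1a2, and at 0.704 CPM in the posterior one. Outside the mesoderm, Sfrp5 was at 88.7 and 61.0 CPM in spinal cord, its second group, and at 44.2 and 61.7 CPM in foregut endoderm. Sfrp4 had 56 UMIs, 16 of them in splanchnic mesoderm. Its highest level was 1.10 CPM in presomitic mesoderm, against 0.562 CPM in splanchnic mesoderm, and 20 groups were not separated from the first.

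Dkk1, the inhibitor needed for head formation, was spread over separated sites. It was at 132 CPM (104 to 166) in tdTom+ against 86.8 CPM (63.3 to 116) in tdTom- in notochord, at 74.8 and 73.8 CPM in midgut and hindgut endoderm and at 49.5 and 66.2 CPM in presomitic mesoderm. In the head it was at 135 and 99.5 CPM in the Lhx2 and Rax cluster and at 16.5 and 10.4 CPM in the En1 cluster, and in the Tac2 and Anxa2 cluster at 181 CPM. Dkk2 led in amnion and extraembryonic mesenchyme with 18.6 and 22 CPM, which held 68.5% of its UMIs, and Dkk3 was at 14.5 and 24.0 CPM there. For Dkk3 this was the highest group in tdTom- only; in tdTom+ midgut and hindgut endoderm was at 15.0 CPM, and with the fractions summed notochord, at 17.5 CPM, was not separated from the first.

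Promoter sequence was compared for letters that fit TCF/LEF proteins, since Wnt ligands and inhibitors can themselves answer to Wnt signals, and for letters that fit GATA factors, since the tdTom+ cells lack Gata1. RefSeq windows on GRCm38.p6, from 250 bases before to 50 bases after a transcript start, were at hand for 27 of the 41 genes, in 30 windows. The TCF/LEF letters searched were CTTTGA. On the opposite strand they read TCAAAG. They stood in 4 of these windows (13.3%) and in 16.0% of all 32851 windows. The GATA letters searched were AGATAA and, as an alternative first base, TGATAA. On the opposite strand the former reads TTATCT while the latter reads TTATCA. Either stood in 4 windows (13.3%) and in 18.6% of all. Neither share lay above the background share. Every match but that of Wnt5b, which follows in its whole window, is printed in a short stretch so that the letters can be read in place, 5′ to 3′ on the strand of the gene, with the matched letters in capitals:
Dkk1, 174 bases before the start, chr19:30549655-30549680, minus strand: ggggagagtgTCAAAGtcctccctgc
Dkk1, 117 bases before the start, chr19:30549598-30549623, minus strand: cctcccaaagCTTTGAaatcccatcc
Fzd1, 242 bases before the start, chr5:4758443-4758466, minus strand: cgcagcacTCAAAGtagcagtctg
Fzd1, 186 bases before the start, chr5:4758387-4758412, minus strand: atatgaagacAGATAAaaagcaagac
Fzd1, 134 bases before the start, chr5:4758335-4758360, minus strand: ctcctattcaTTATCTcctgccgcat
Wnt11, 50 bases before the start, chr7:98835052-98835077, plus strand: cgtgggcggaTCAAAGcgacggtccg
Wnt2, 9 bases before the start, chr6:18030439-18030464, minus strand: ttttgaaactTTATCAgtgagtctca
Wnt8b, 27 bases before the start, chr19:44493435-44493460, plus strand: ttaattaagtAGATAAtctcttcttt
Sfrp5, 236 bases before the start, chr19:42202473-42202498, minus strand: cgaggcacagAGATAAgcaggtgaag
Sfrp5, 180 bases before the start, chr19:42202417-42202442, minus strand: tggtggagagAGATAAaaagacgaag
The RefSeq starts of Dkk1 and Wnt2 and the matched start of Wnt5b lie inside the longest GENCODE gene models. The second Dkk1 stretch, the Wnt2 stretch and the whole Wnt5b window printed below therefore lie inside a gene model. The first Dkk1 stretch runs across the end of its model. A match names letters and not a bound site.

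Wnt3a and Wnt5b, which shared the growth zone, are shown with the whole 250 bases before a RefSeq start, because they differ in these letters: Wnt3a had no match and Wnt5b had 1 in 1 of its 3 starts, 71 bases before it (capitals). The Wnt3a window is chr11:59290752-59291001 and the Wnt5b window chr6:119449387-119449636, both on the minus strand of GRCm38.p6.
Wnt3a: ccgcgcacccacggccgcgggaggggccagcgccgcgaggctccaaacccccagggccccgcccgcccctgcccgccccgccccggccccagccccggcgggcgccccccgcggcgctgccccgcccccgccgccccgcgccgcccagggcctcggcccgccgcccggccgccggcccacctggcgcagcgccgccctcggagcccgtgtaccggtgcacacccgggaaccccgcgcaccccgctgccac
Wnt5b: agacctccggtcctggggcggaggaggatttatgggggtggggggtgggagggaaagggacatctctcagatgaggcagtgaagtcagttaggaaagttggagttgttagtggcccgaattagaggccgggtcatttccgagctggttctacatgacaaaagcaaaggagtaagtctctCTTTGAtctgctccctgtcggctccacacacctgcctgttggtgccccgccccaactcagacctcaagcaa

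Some ligand genes are neighbours in the genome, which the choice of genes did not use. Wnt6 (chr1:74771892-74785322) and Wnt10a (chr1:74791516-74804179) lie 6193 bases apart on the same strand. Their levels over 29 cell groups had a Pearson correlation of 0.65 on the log2(CPM + 1) scale, and both were found in surface ectoderm and notochord. Wnt3 and Wnt9b lie 24328 bases apart on opposite strands of chromosome 11, with a correlation of 0.51. Wnt3a and Wnt9a (16175 bases) and Wnt1 and Wnt10b (11706 bases) had correlations of 0.46 and 0.38, but Wnt9a and Wnt10b had few UMIs. Without regard to position, the closest patterns after Fzd2 and Fzd7 were those of Sfrp1 and Sfrp2 (0.82) and of Fzd2 with Fzd3 and with Sfrp1 (both 0.81). Next came Wnt1 and Fzd9 (0.78), Fzd7 and Sfrp1 (0.78), Wnt5b and Fzd10 (0.78), Wnt4 and Wnt9b (0.77), Fzd2 and Sfrp2 (0.77), Dkk2 and Wnt2b (0.77) and Wnt3a and Wnt10a (0.76). These correlations describe 29 groups that share 2 libraries, and low genes add zeros that they have in common.

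The unspliced layer differed widely between the genes. Unspliced UMIs were 57.1% (Clopper-Pearson 95% interval 55.1 to 59.2) of the spliced and unspliced UMIs of Wnt3a, 49.3% of those of Wnt5b, 62.7% for Dkk2 and 68.2% for Wnt2b. They were 5.10% for Wnt6, 4.51% for Wnt4, 0.189% for Dkk1 and 0.079% for Sfrp5. Of the 41 genes, 6 Frizzled genes have a single exon and had 0 unspliced UMIs, as had Fzd6, so the layer carries nothing on them. Beyond that range over the genes, the share is compared here only between fractions for the same gene. It was lower in tdTom+ for Rspo3 (22.7%, 22 to 23.5, against 26.1%, 25.3 to 26.9), Fzd3 (42.3%, 41.1 to 43.4, against 46.2%, 45.1 to 47.2) and Fzd4 (7.47%, 6.37 to 8.70, against 10.6%, 9.09 to 12.2). The fractions held different shares of each cell group, and the part of this in the unspliced shares was not tested.

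**Figure D3:**
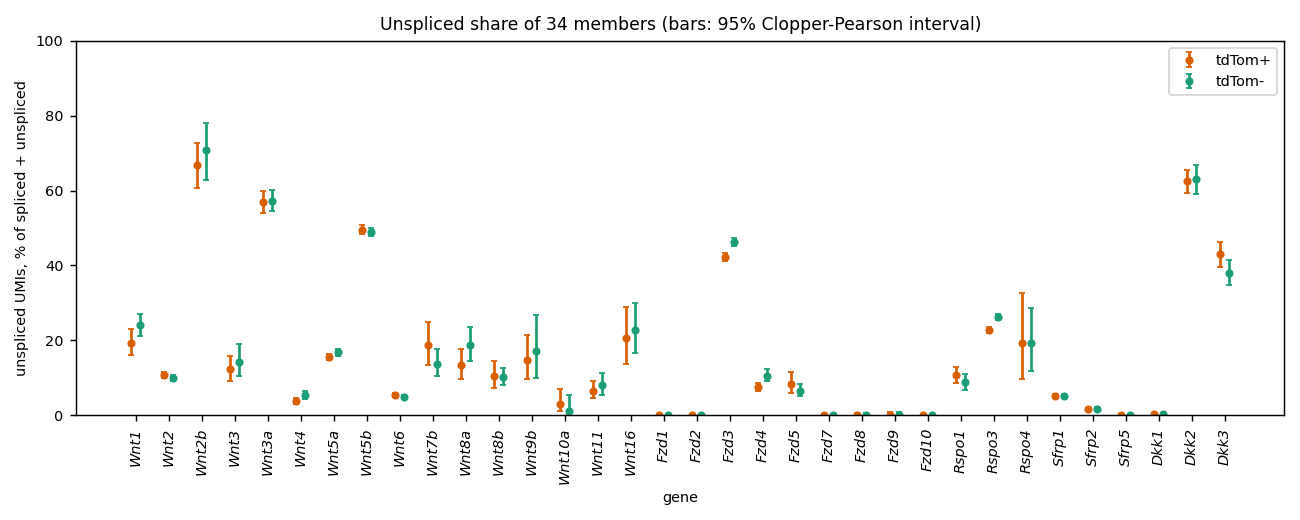
Unspliced UMIs as a percentage of spliced plus unspliced UMIs for 34 genes, with a point for each fraction and 95% Clopper-Pearson intervals as bars. The points of tdTom+ and tdTom- lay close together for most genes, with Wnt2b, Dkk2 and Wnt3a above 50% and the single-exon Frizzled genes at 0.

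The question the sort was made for is whether Gata1- cells differ from wild-type cells of the same kind. It was put to each gene in the 20 cell groups with at least 50 cells of each fraction. A difference was called where the level differed at least 2-fold, the exact 95% interval of the log2 fold (tdTom+ over tdTom-) excluded 0, and the gene had at least 20 UMIs in the group. Of 379 pairs of a gene and a cell group, 30 were called (7.92%), 14 higher and 16 lower in tdTom+. Over all genes the share was 2.14%. Most calls rested on few UMIs: with at least 20 but fewer than 200 UMIs 26 of 219 pairs were called (11.9%, all genes 3.89%), and with 200 or more 4 of 160 (2.5%, all genes 0.556%). The intervals cover counting error within 1 library per fraction, so a call says that these libraries differ.

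Calls by cell group stood beside the following shares over all genes. No gene of the 41 was called in endothelium (10 tested, all genes 2.12%), pharyngeal and cranial mesoderm (16 tested, 1.89%), somitic mesoderm (18 tested, 1.79%) or the cluster led by Galnt3 and Pax8 (12 tested, 1.99%). A single call was made in allantois (22 tested, 2.33%), forebrain and midbrain (25 tested, 1.81%), midgut and hindgut endoderm (17 tested, 2.95%), splanchnic mesoderm (22 tested, 1.80%), surface ectoderm (27 tested, 1.92%) and the Vgll3 and Stmn2 cluster (19 tested, 1.85%). There were 2 calls in amnion and extraembryonic mesenchyme (26 tested, 2.97%), foregut endoderm (17 tested, 2.27%), haemato-endothelial progenitors (16 tested, 2.08%), neural crest (16 tested, 1.95%), neuromesodermal progenitors (21 tested, 1.73%), spinal cord (24 tested, 1.80%) and the cluster led by Lhx1 and Prrx1 (20 tested, 1.85%). Presomitic mesoderm had 3 calls (18 tested, 1.58%), as had the cluster led by Igfbpl1 and Tlx1 (16 tested, 3.18%), and cardiomyocytes had 4 (17 tested, 3.03%).

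**Figure D4:**
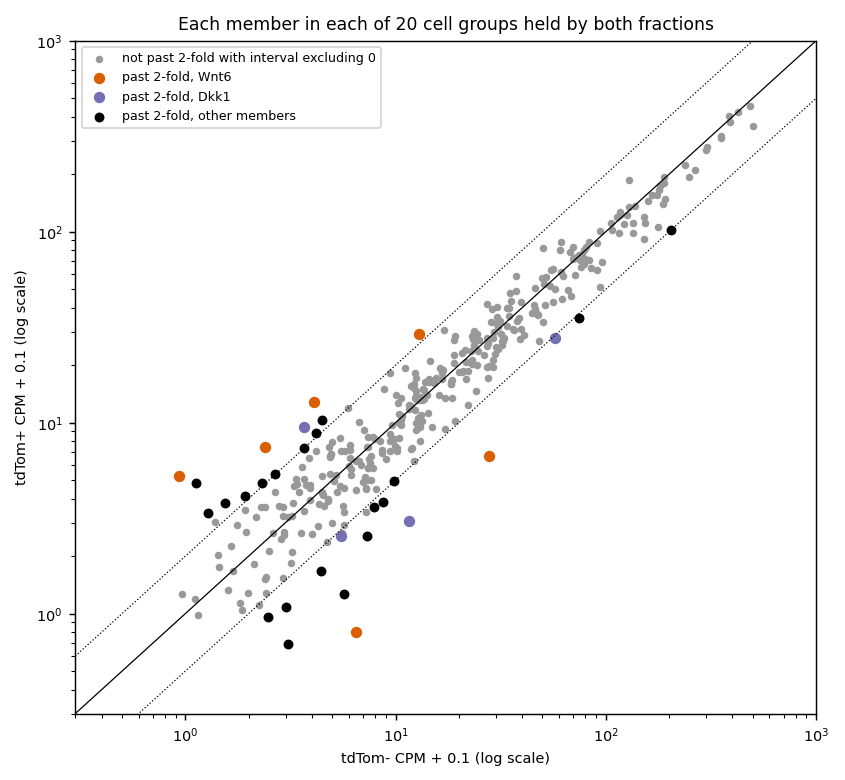
Level in tdTom+ cells (vertical axis) against tdTom- cells (horizontal axis) of every gene tested in each of 20 cell groups, as CPM + 0.1 on log axes, with the line of equal levels solid and 2-fold lines dotted. Most points lay between the 2-fold lines, and the called points of Wnt6 lay on both sides.

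Wnt6 accounted for 6 of the 30 calls, in both directions and away from the surface ectoderm where it was highest. In neuromesodermal progenitors it was at 29.2 CPM in tdTom+ against 12.8 CPM in tdTom-, a log2 fold of 1.19 (0.85 to 1.54), from 221 and 104 UMIs. The share of these cells with a Wnt6 UMI was 26.7% and 15.8%, or 11.8% and 5.41% after each cell was thinned to 5000 UMIs, against 0.682% and 0.139% in thinned blood cells. Wnt6 was also higher in tdTom+ in foregut endoderm (12.7 and 3.99 CPM, log2 fold 1.67), spinal cord (5.17 and 0.836 CPM, 2.63) and the Vgll3 and Stmn2 cluster (7.37 and 2.29 CPM, 1.69). A single cell gave 13 of the 36 tdTom+ UMIs in spinal cord, 9 of 26 in the Vgll3 and Stmn2 cluster and 9 of 40 in foregut. It was lower in tdTom+ in the Igfbpl1 and Tlx1 cluster (6.63 and 27.9 CPM, -2.07, interval -2.80 to -1.38) and in cardiomyocytes (0.700 and 6.42 CPM, -3.20), where 1 cell gave 15 of the 25 tdTom- UMIs.

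In the Igfbpl1 and Tlx1 cluster, whose leading genes include Isl1, Tbx1 and Nkx2-5, known from heart precursors, Wnt2 and Dkk1 were lower in tdTom+ as well. Wnt2 was at 35.5 CPM in tdTom+ against 74.1 CPM in tdTom- (log2 fold -1.06, -1.41 to -0.72), and Dkk1 at 27.8 and 57.2 CPM (-1.04, -1.43 to -0.65).

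Rspo3 in midgut and hindgut endoderm was the call with the most UMIs. It was at 102 CPM (89.3 to 116) in tdTom+ against 205 CPM (189 to 221) in tdTom-, a log2 fold of -1.0 (-1.23 to -0.78), from 232 and 613 UMIs. Of these cells 37.7% and 56.1% had an Rspo3 UMI, or 26.3% and 46.0% after thinning to 5000 UMIs. The value lay at the 2-fold limit, and the log2 fold was -0.95 under median-ratio scaling and -0.84 with doublets kept. In the same cells the Wnt target genes Lef1 (68.2 and 104 CPM, log2 fold -0.61, -0.90 to -0.33), Sp5 (211 and 277 CPM, -0.40, -0.56 to -0.23) and T (75.2 and 114 CPM, -0.60, -0.87 to -0.33) had lower levels in tdTom+ without reaching 2-fold, and Axin2 was at 52.3 and 64.4 CPM with an interval that held 0. Target shifts below 2-fold whose intervals excluded 0 were also found in groups without an Rspo3 call, in both directions. Sp5 was higher in tdTom+ in neural crest (0.59, 0.29 to 0.89), and Lef1 was lower in spinal cord (-0.45, -0.70 to -0.21). A link between Rspo3 and these targets was not tested.

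Dkk1 and Wnt4 made up further calls below their main sites. Dkk1 was lower in tdTom+ in haemato-endothelial progenitors (2.95 and 11.4 CPM, log2 fold -1.95, -2.88 to -1.10) and higher in neural crest (9.37 and 3.56 CPM, 1.40, 0.45 to 2.42). In cardiomyocytes Dkk1 was at 2.45 and 5.39 CPM (-1.14), with 14 of 21 tdTom- UMIs in 1 cell, and the log2 fold was 0.26 with doublets kept. Wnt4 was lower in tdTom+ in splanchnic mesoderm (3.76 and 8.6 CPM, -1.19, -1.68 to -0.72) and in the Lhx1 and Prrx1 cluster (1.17 and 5.57 CPM, -2.26).

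Of the ligands and receptors called elsewhere, Wnt3 and Wnt9b were higher in tdTom+ in amnion and extraembryonic mesenchyme (log2 folds 1.04 and 1.45), Wnt3a in forebrain and midbrain (1.14), Wnt5a in neural crest (1.11), Wnt10a in presomitic mesoderm (1.04) and Fzd5 in foregut endoderm (1.22). In unspliced UMIs the sign turned for Wnt3 in amnion (-0.070, from 10 and 6 UMIs) and for Fzd5 in foregut (-1.10, from 1 and 2 UMIs). Lower in tdTom+ were Wnt2 in haemato-endothelial progenitors (-1.15) and in surface ectoderm (-2.33, with 15 of 22 tdTom- UMIs in 1 cell), and Wnt8b and Wnt16 in presomitic mesoderm (-1.57 and -1.45). Among the SFRP and Dickkopf genes, Sfrp5 was lower in allantois (-1.01, with 1 and 0 unspliced UMIs) and higher in neuromesodermal progenitors and the Lhx1 and Prrx1 cluster (1.10 and 1.36). Sfrp2 was lower and Dkk2 higher in cardiomyocytes (-1.55 and 2.20), and Dkk3 was lower in spinal cord (-1.47, but 0.43 in unspliced UMIs, from 6 and 6). Each of these calls rested on fewer than 200 UMIs over both fractions.

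The blood groups could not be compared in kind, because each lay almost wholly in 1 fraction: erythroid cells were 2 tdTom+ and 1325 tdTom-, blood progenitors 1120 and 1, megakaryocytes 2 and 121, and the unnamed cluster led by Fcer1g and Spi1, which raised all 6 blood progenitor markers but had 4 myeloid markers and 0 of these 6 among its 10 leading genes, 501 and 28. When these 4 clusters were summed to 1625 tdTom+ and 1475 tdTom- cells, 20 of the genes had at least 20 UMIs, of which 5 were higher and 2 lower in tdTom+, where 15.0% and 3.7% of all genes were higher and lower (18.7% either way). The median log2 fold was 0.59 over the 20 genes and 0.25 over all genes tested, and with median-ratio scaling every fold here falls by 0.25. In such sums, a change in the mix of cells and a change of RNA in cells of the same kind cannot be told apart. The megakaryocyte group here was named from markers and is not the megakaryocyte set of the paper. That set came from mapping cells to a reference atlas, and the paper reports it as over-represented among Gata1- cells. Which clusters here hold those cells was not tested.

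None of the 7 calls remained when the 4 clusters were combined by Mantel-Haenszel weights, which compare the fractions inside each cluster. Most of that weight fell on the Fcer1g and Spi1 cluster, with its 28 tdTom- cells. The erythroid, blood progenitor and megakaryocyte clusters held only 2, 1 and 2 cells of their smaller fraction. The loss of the calls therefore says little about those clusters. Rspo3 and Wnt2 had the largest positive log2 folds in the sums. Rspo3 was at 45.7 CPM in tdTom+ against 1.89 CPM in tdTom- blood cells (log2 fold 4.59, 4.20 to 5.01), and Wnt2 at 29.6 and 2.21 CPM (3.75, 3.38 to 4.14), or 2.64 and 2.57 with doublets kept. After thinning to 5000 UMIs, 16.0% and 0.973% of the cells had an Rspo3 UMI and 12.9% and 0.903% a Wnt2 UMI (39.3% and 2.17%, and 39.1% and 3.66%, unthinned). By cluster, in the tdTom+ blood progenitors Rspo3 was at 47.3 CPM (44.6 to 50.1) and Wnt2 at 35.5 CPM (33.2 to 38.0), and in the tdTom- erythroid cells at 0.738 CPM (0.444 to 1.15) and 1.98 CPM (1.47 to 2.60), clusters that are each almost wholly of 1 fraction. Where both fractions were present, in the Fcer1g and Spi1 cluster, Rspo3 was at 42.1 and 46.1 CPM (log2 fold -0.13, -0.75 to 0.56) and Wnt2 at 16.1 and 14.7 CPM (0.14, -0.94 to 1.47), with 28 tdTom- cells behind the second value of each. In haemato-endothelial progenitors Rspo3 was at 111 and 153 CPM and Wnt2 at 3.51 and 7.80 CPM, so the fractions did not stand in the order of the blood sums.

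**Figure D5:**
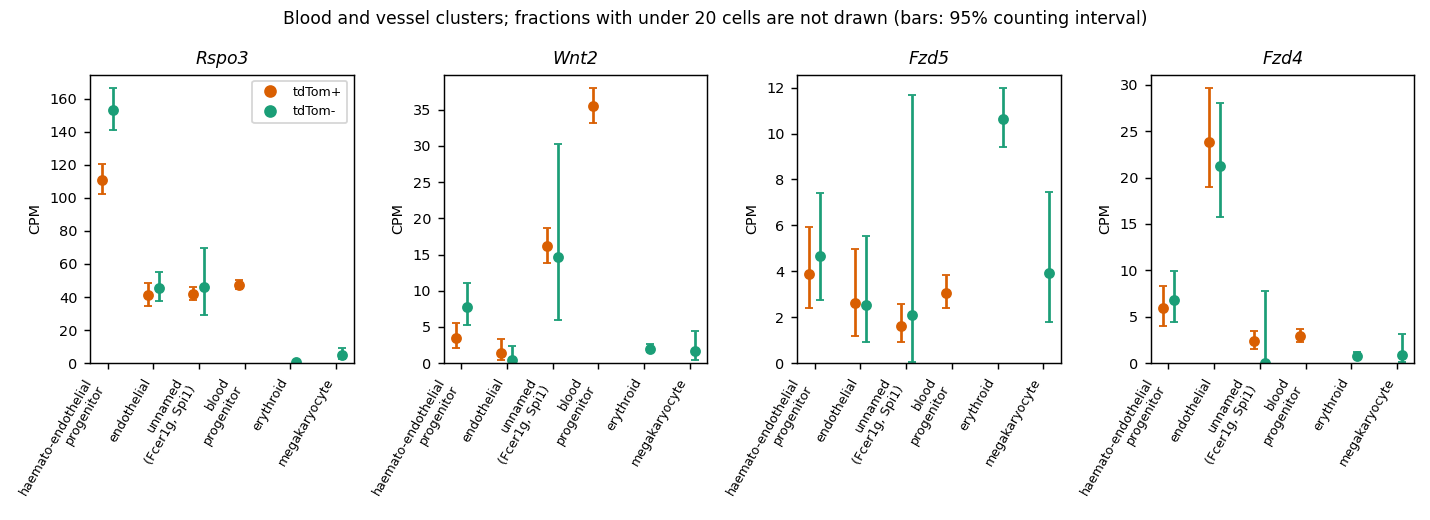
CPM of Rspo3, Wnt2, Fzd5 and Fzd4 in 6 blood and vessel clusters for tdTom+ and tdTom- cells, with 95% counting intervals as bars; fractions with under 20 cells in a cluster are not drawn. Rspo3 and Wnt2 stood high in the tdTom+ blood progenitors and near 0 in the tdTom- erythroid cells, and the fractions overlapped in the cluster led by Fcer1g and Spi1.

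In the other direction, Fzd5 was at 2.61 CPM in tdTom+ against 9.95 CPM in tdTom- blood cells (log2 fold -1.93, -2.28 to -1.59), with 10.6 CPM in erythroid cells against 3.05 CPM in the tdTom+ blood progenitors. Rspo4 was at 0.114 and 1.30 CPM (-3.51, -5.46 to -2.04), from 4 and 37 UMIs. Fzd4 was higher in tdTom+ (2.72 and 0.806 CPM, 1.76), as were Wnt6 (0.937 and 0.385 CPM, 1.28) and Sfrp5 (0.993 and 0.490 CPM, 1.02). The last of these rested on 1 cell with 21 of the 35 tdTom+ UMIs. These 3 turned sign under an alternative: Fzd4 was at -0.63 in unspliced UMIs, Wnt6 at -0.70 with the lowest level of each fraction subtracted, and Sfrp5 at -0.047 with doublets kept. For Wnt6 the levels subtracted were unlike, 0.700 CPM in tdTom+ and 0 CPM in tdTom-. They were taken over different sets of cell groups, so this sign says little about the fold.

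The rest of the pathway was read from a list of 71 genes in 7 classes, of which 69 were found under the symbols used. In the 20 cell groups held by both fractions, 1016 pairs of a gene and a group were tested and 30 were called (2.95%, beside 2.14% over all genes), 11 higher and 19 lower in tdTom+. Some genes, among them Lgr5 and Notum, stand in 2 classes, so the classes add up to more than these totals. Among target genes of the embryo 9 pairs were higher and 7 lower of 242 (6.61%), while none of the 79 pairs of the nuclear factors Tcf7, Tcf7l1, Tcf7l2 and Lef1 was called. Apart from Lgr5 and Notum, the target calls were of Cdx1, Cdx2, Cdx4 and T. All but that of Cdx2 in amnion and extraembryonic mesenchyme rested on fewer than 200 UMIs. With at least 20 but fewer than 200 UMIs, 3.89% was called over all genes. The other classes were co-receptors with 2 higher and 1 lower of 169 (1.78%), processing and secretion with 3 lower of 132 (2.27%), further antagonists with 1 higher and 4 lower of 91 (5.49%), intracellular transduction with 2 lower of 309 (0.647%), and planar cell polarity with 3 lower of 97 (3.09%).

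Of the target genes, T, the transcription factor of the posterior mesoderm and notochord, was higher in tdTom+ in foregut endoderm (14.3 and 2.18 CPM, log2 fold 2.72) and lower in amnion and extraembryonic mesenchyme (0.665 and 3.16 CPM, -2.25). The caudal gene Cdx2 was at 77.7 and 30.3 CPM in amnion and extraembryonic mesenchyme (1.36, 1.15 to 1.57), higher in neural crest (1.71) and the Galnt3 and Pax8 cluster (1.89), and lower in cardiomyocytes (-1.55), endothelium (-1.05) and the Vgll3 and Stmn2 cluster (-1.47). Its relative Cdx4 was higher in the Igfbpl1 and Tlx1 cluster (15.3 and 2.49 CPM, 2.62) and lower in endothelium (-1.18) and in forebrain and midbrain (-1.16). Cdx1 was higher in allantois (1.11), neural crest (1.53) and the Galnt3 and Pax8 cluster (2.02), and Lgr5, an R-spondin receptor, in surface ectoderm (1.40). Notum, which strips the lipid from Wnt ligands, was lower in the Igfbpl1 and Tlx1 cluster (-1.64).

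The other called genes were Frzb, an antagonist, lower in haemato-endothelial progenitors (-1.69) and higher in neural crest (1.17), Reck, higher in pharyngeal and cranial mesoderm (1.57), and Lgr4, an R-spondin receptor, lower in endothelium (-1.65). Lower in tdTom+ were also Porcn, the enzyme that attaches the lipid to Wnt ligands, and Tpbg in cardiomyocytes (-1.08 and -1.06), Pygo1 in forebrain and midbrain (-1.06), Cer1 in presomitic mesoderm (-1.5), Celsr2 in somitic mesoderm (-1.44), Wif1 and Prickle2 in splanchnic mesoderm (-1.86 and -1.92), Sulf1 in the Galnt3 and Pax8 cluster (-1.34), and Nkd2 and Vangl1 in the Vgll3 and Stmn2 cluster (-1.33 and -1.0).

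Axin2, Lef1 and Sp5, direct targets of the canonical branch, were called in none of the 20 groups. Among groups where a ligand led, Axin2 was at 52.3 and 64.4 CPM in midgut and hindgut endoderm and 47.1 and 46.3 CPM in neuromesodermal progenitors. It was at 51.6 and 40.6 CPM in surface ectoderm, and at 2.27 and 4.11 CPM in cardiomyocytes, the group with most Wnt2. In forebrain and midbrain, where Wnt8b led, Axin2 was at 37.4 and 24.9 CPM (log2 fold 0.59, 0.33 to 0.85). Sp5 there was at 65.3 and 48.8 CPM (0.42, 0.23 to 0.61), while Lef1 was at 53.4 and 56.4 CPM with an interval that held 0. Lef1 was at 390 and 400 CPM in presomitic mesoderm and at 125 and 122 CPM in neuromesodermal progenitors. Sp5 was at 627 and 581 CPM in notochord. T was highest there too, at 1485 and 1340 CPM, followed by 147 and 169 CPM in neuromesodermal progenitors. The marker lists of both groups hold T, so this order is partly built into their names. The amnion and allantois, where Wnt2, Wnt5a, Wnt6 or Wnt4 were high, had Axin2 at 11.1 and 10.0 CPM and at 20.4 and 20.3 CPM.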

How the data were processed

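Counts of spliced and of unspliced UMIs per cell and gene were deposited by the authors as raw values. According to the study's methods the authors aligned and counted reads with Cell Ranger 3.0.2 on mm10, called cells with emptyDrops, removed poor cells with a mixture model and split the reads into layers with velocyto. The authors also deposited the percent of mitochondrial UMIs per cell, with medians of 2.07 and 2.08 percent, and Cell Ranger counts per gene over both libraries. The layers hold reads that velocyto could assign, so a gene can lose most of its counts there. Spliced UMIs came to 167940767 in tdTom+ and 157174026 in tdTom-.

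From these, doublets were called with Scrublet in scanpy 1.11.5 (377 of 8981 tdTom+ and 518 of 9252 tdTom- cells, 4.20% and 5.60%) and left out with a cluster of which 94.8% was called. Cells were clustered with leidenalg 0.10.2 at resolution 1.5 on 2447 variable genes and 50 components, without the 41 genes and the pathway list. A name needed 3 or more markers of its list at 2-fold over all other cells, no other list with more of them, and no other list ahead among the 10 leading genes, which also decided ties. The rules that more than 50% of the markers or 2 top genes be of the class, and that endodermal classes raise Epcam, were added after clusters had been seen. The name spinal cord rests on its marker list alone, and a leading gene of these cells is not reported here. UMIs were summed by cell group and fraction. Poisson, Clopper-Pearson and conditional binomial 95% intervals cover counting error only, since 1 library per fraction leaves no replicate. The named genes were all 41, with 100 UMIs as the limit for a description by cell group, and the called genes of the pathway list with Axin2, Lef1, Sp5 and T. The members and lists were chosen with earlier results of these data known. On counts simulated for the 10842 genes tested in neuromesodermal progenitors, 95.6% of intervals covered the fold put in, and calls were made for 97.0% of the 200 altered genes and 0.479% of the others. The simulated totals had Poisson spread alone, without UMIs clumped in single cells or spread between embryos, and every altered gene was moved past the 2-fold limit. In the data 1.73% of all genes were called in these cells, so the simulated shares need not hold for the real calls. Alternatives were other scalings, layers, depths, count limits, cluster resolutions, doublets kept, and clusters combined by Mantel-Haenszel weights. Promoter windows came from RefSeq, gene positions from GENCODE vM21.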

Additional observations from a re-analysis of the deposited data

Results flagged for a closer look

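The genes below were picked out because their called differences between the fractions ran in opposite directions in different cell groups. None of these contrasts was tested, since each fraction is 1 library. With log2 fold meaning tdTom+ over tdTom-, Wnt6 was 1.19 in neuromesodermal progenitors, 1.67 in foregut endoderm, 2.63 in spinal cord and 1.69 in the cluster led by Vgll3 and Stmn2, and -3.20 in cardiomyocytes and -2.07 in the cluster led by Igfbpl1 and Tlx1. Dkk1 was 1.40 in neural crest, and -1.14 in cardiomyocytes, -1.95 in haemato-endothelial progenitors and -1.04 in the Igfbpl1 and Tlx1 cluster. Sfrp5 was 1.10 in neuromesodermal progenitors and 1.36 in the cluster led by Lhx1 and Prrx1, and -1.01 in allantois. For Wnt6 a single tdTom+ cell held 13 of 36 UMIs in spinal cord, 9 of 26 in the Vgll3 and Stmn2 cluster and 9 of 40 in foregut. The cardiomyocyte values of Wnt6 and Dkk1 each rest on 1 tdTom- cell with 15 of 25 and 14 of 21 UMIs, and the allantois fractions lie in separate clusters.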

How the results depend on the processing

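No paired analysis was possible because each fraction is 1 library, and no replicate could be left out. The leading cell group was kept for 26 to 34 of the 34 described genes under the other weightings, resolutions, doublet setting and tdTom- alone. It was kept for 22 with tdTom+ alone. Within a fraction only groups with at least 50 of its cells were ranked. Notochord could therefore lead in neither fraction, so the changes of Dkk1, Fzd1, Wnt3 and Wnt10a were forced. In tdTom+ those of Fzd3, Rspo4 and Wnt7b were forced too. For these genes the counts do not show whether leading groups differ between the fractions. The leading group changed both at resolution 2.5 and with doublets kept for Wnt2, Sfrp5, Wnt5a, Fzd8 and Rspo4. Leading levels stayed within 1.5 times for 27 to 34 genes. Of the 30 calls in 20 cell groups, 28 remained with Mantel-Haenszel weights over clusters, 27 with median-ratio and 26 with trimmed-mean scaling, but fewer where not every call could be run again: 18 of the 23 with 20 UMIs at resolution 2.5, 13 of 21 with doublets kept, 6 of 8 after thinning to 5000 UMIs and 1 of 4 in unspliced UMIs alone. The others had fewer UMIs there, or no group of that name with 50 cells per fraction. With a limit of 50 UMIs 12 were left. In a cell group made of a single cluster, Mantel-Haenszel weights leave the fold unchanged. Of the 20 groups, only allantois, amnion and extraembryonic mesenchyme, cardiomyocytes, forebrain and midbrain, splanchnic mesoderm and surface ectoderm held more clusters. The 28 kept calls therefore say little about the other groups. The cause of the 8 losses with doublets kept was not tested. The total of calls was 24 to 41 elsewhere and 12 with the limit of 50 UMIs. Of the 7 calls in summed blood cells, 0 remained with Mantel-Haenszel weights, which made 4 calls, 4 with doublets kept, 4 of 4 with enough UMIs after thinning, 4 with the limit of 50 UMIs, where the count was 4, and 3 of 4 in unspliced UMIs. In blood the Mantel-Haenszel weights fell mostly on the Fcer1g and Spi1 cluster, with 28 tdTom- cells, and say little about the other clusters. Signs turned for Rspo3 in blood (-0.085 with these weights, -0.13 inside the Fcer1g and Spi1 cluster), Fzd4 in blood (-0.63 unspliced), Sfrp5 in blood (-0.047 with doublets kept, -0.29 at resolution 2.5), Wnt6 in blood (-0.70 with the lowest level subtracted), Dkk1 in cardiomyocytes (0.26 with doublets kept, 0.032 at resolution 2.5), and in unspliced UMIs Wnt3 in amnion (-0.070), Fzd5 in foregut (-1.10), Dkk3 in spinal cord (0.43) and Sfrp5 in allantois (1 and 0 UMIs, so no fold). For Wnt6 in blood the levels subtracted were unlike, 0.700 CPM in tdTom+ and 0 CPM in tdTom-. Notochord, with 44 and 40 cells, and low ligands such as Wnt2b are limited by counts.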

Other observations

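Extraembryonic groups that could not be compared between fractions held few of these genes. The 75 extraembryonic ectoderm cells, 74 of them tdTom-, had Wnt6 at 106 CPM (91.4 to 121) beside Wnt7b at 57.3 CPM, and no receptor at or above 10 CPM. Extraembryonic endoderm, with 69 cells of which 62 were tdTom-, had 4 genes at or above 10 CPM, namely Fzd2, Fzd4, Dkk1 and Sfrp5. Megakaryocytes had none of the 41 genes at 10 CPM, and erythroid cells 1, Fzd5. Notochord had the most among the named groups, 16 of the 41, with 7 ligands and 5 receptors among them.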
